A study of Caenorhabditis elegans with 45 samples.

Results

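The 44 genes described here are those of Caenorhabditis elegans whose WBcel235 symbol starts with gst-, out of 19982 genes with a quantified transcript. The symbol alone decides membership. Levels come from bulk sequencing of polyadenylated RNA, taken from whole day 1 adult hermaphrodites in 15 groups with 3 libraries each. Of these groups, 8 are parental strains that were produced by selfing: N2, the laboratory reference, and the wild strains CB4856, EG4348, DL238, QX1211, XZ1516, ECA722 and ECA701. The other 7 are F1 hybrids of wild fathers and N2 mothers that carried fog-2, a mutation that leaves hermaphrodites without sperm of their own. Their genotype is labelled wildtype, and males were removed from the plates by hand. The parental N2 libraries are labelled as strain CB4108 with a fog-2 deletion, whereas the protocol has them selfing. Their fog-2 level was 42.2 ± 4.62 CPM (counts scaled by TMM-adjusted library size; SD, n = 3), within the 31.7 to 46.8 CPM of the wild parental libraries. That goes against a deletion, so they are called the libraries labelled N2, and every difference from N2 below is a difference from these libraries. F1 libraries ranged from 20.9 to 32.2 CPM for fog-2.

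Glutathione S-transferases join the tripeptide glutathione to electrophilic compounds, such as plant toxins, drugs and products of lipid peroxidation, and the conjugates are then exported from the cell. In nematodes the family is large, is expressed chiefly in the intestine and is in part induced by SKN-1, the counterpart of the mammalian stress regulator Nrf2. Glutathione itself is made by gcs-1 and gss-1 and recycled by gsr-1, and the MRP transporters carry conjugates out.

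All 44 members are annotated as protein coding. Chromosome II holds 25, chromosome V 9, chromosome IV 4, chromosome X 3, chromosome I 2 and chromosome III 1. In WBcel235, 4 members lie on chromosome II between 4879891 and 4893573 (gst-6, gst-7, gst-8 and gst-9, on the plus strand). A second run on chromosome II, from 13608154 to 13630887, holds 9 members that are all on the minus strand (gst-20, gst-24, gst-15, gst-14, gst-12, gst-16, gst-19, gst-17 and gst-18). A further 9 minus-strand members lie between 15163817 and 15185389 (gst-26, gst-27, gst-28, gst-29, gst-39, gst-31, gst-32, gst-34 and gst-35). On chromosome IV, gst-3, gst-2 and gst-4 lie between 10139380 and 10143099. The remaining 19 members were not within 20000 bases of another member in these runs. Neighbours can share fragments. Only 24.2% of the fragments of gst-27 and 61.3% of those of gst-26 matched no other gene, against 76.9% for gst-10 and 83.0% for gst-4, which overlaps dhs-12 on the same strand. The short gst-18 overlaps gst-17 on the same strand and had 79.0% of its fragments to itself. For the other 39 members at least 95% were specific.

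Library totals were 24.5 to 90.5 M estimated counts, with a median of 63.6 M. Markers of the labelled sample were present in every group. Intestinal markers summed to 5748 to 7369 TPM (abundance scaled by transcript length and library total) in the group means, hypodermal markers to 3703 to 5911, germline and oocyte markers to 1880 to 2406, and the 4 male markers to 0.210 to 0.798. Embryo markers, from embryos held in gravid adults, ran from 6.86 to 14.5 TPM, and the 4 sperm markers from 3.93 to 94.5 TPM. The libraries are whole animals, so fewer cells of a type and less RNA per cell cannot be told apart.

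The summed level of the family was close between groups. It lay between 860 TPM in the XZ1516 F1 and 1076 TPM in parental ECA722, and was 926.8 ± 20.3 TPM (SD, n = 3) in the libraries labelled N2. Most of that sum came from a few genes: gst-1 and gst-7 together gave 54.03% of it in parental QX1211 and 68.57% in the ECA701 F1, the lowest and the highest share. Over all 45 libraries gst-1, which protects dopamine neurons from manganese in this species, averaged 374 TPM and gst-7 averaged 214 TPM. A step below came gst-10, a transferase that clears the lipid peroxidation product 4-hydroxynonenal, at 50.5 TPM, then gst-27 at 47.6, gst-26 at 45.4 and gst-36 at 44.5 TPM. In all, 2 members averaged 100 TPM or more, 12 averaged 10 to 100, 15 averaged 1 to 10 and 15 stayed under 1 TPM. The lowest was gst-37 at 0.0307 TPM. For 39 members the counts sufficed for a test. The members left untested, gst-8, gst-14, gst-18, gst-25 and gst-37, averaged 0.822 to 3.96 estimated counts per library.

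**Figure D1:**
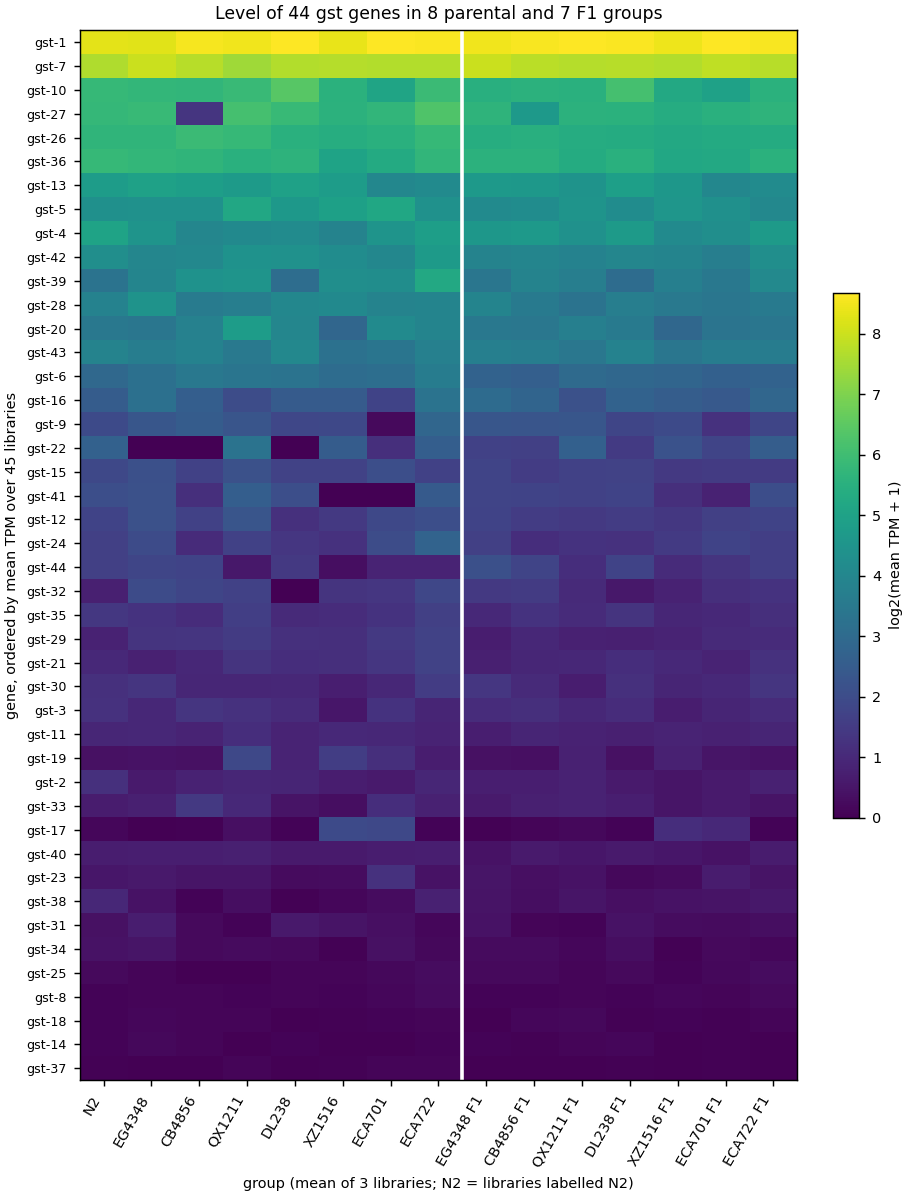
Mean level of the 44 genes in 15 groups, as log2(mean TPM + 1) of 3 libraries, with genes in order of their mean over all libraries and a white line between the 8 parental and the 7 F1 groups. The top rows, gst-1 (374 TPM on average) and gst-7 (214 TPM), are near uniform across groups, whereas dark cells in lighter rows mark groups where a gene was at or near 0, such as gst-22 in parental EG4348, CB4856 and DL238.

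The first comparison asks how far the wild strains depart from the laboratory reference. Of 39 members tested, 37 differed among the 8 parental strains (edgeR's quasi-likelihood F test, Benjamini-Hochberg adjusted over 16444 genes), beside 88.1% of all genes. The exceptions were gst-11 and gst-40. Leaving out the libraries labelled N2, 35 members differed among the 7 wild strains, beside 86.3% of all genes. A difference among strains was thus as frequent in the transcriptome as a whole. Against the libraries labelled N2, 35 members passed the test in at least 1 wild strain (86.6% of all genes did), 9 of them only higher, 11 only lower and 15 higher in some strains and lower in others (23.5% of all genes went both ways).

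By strain, ECA701 and XZ1516 had the most calls. In ECA701 10 members were higher and 15 lower than in the libraries labelled N2. That is 64.1% of those tested, beside 52.5% of all genes (27.7% higher and 24.8% lower). XZ1516 had 7 higher and 17 lower members, or 61.5%, beside 45.3% of all genes (22.6% in each direction). QX1211 had 11 higher and 8 lower, or 48.7%, beside 45.2% (21.4% and 23.8%). In ECA722 the split was 14 higher against 4 lower, or 46.2%, beside 41.4% (22.3% and 19.1%). In CB4856 it was 10 against 7, or 43.6%, beside 31.6% (18.2% and 13.4%). EG4348 had 9 higher and 6 lower, or 38.5%, beside 34.8% (19.2% and 15.5%). DL238, with 7 higher and 5 lower, was the strain whose share of 30.8% fell short of that of all genes, 35.9% (18.6% and 17.3%). Over the 7 strains, 130 of 273 member tests were calls (47.6%, beside 40.9% of all gene tests), 68 higher (beside 21.4%) and 62 lower (beside 19.5%). Differences past 2-fold made up 22.7% of the member tests, beside 13.5% of all gene tests. The 7 comparisons share the N2-labelled libraries, so they are not independent of each other. Summed markers in the wild strains were 1.02 to 1.28 times those in the libraries labelled N2 for the intestine, 1.07 to 1.53 times for muscle and 1.03 to 1.28 times for germline and oocytes, above 1 in all 7 strains. They were 0.85 to 1.13 times for the hypodermis, 0.981 to 1.24 times for neurons and 0.649 to 1.37 times for embryos. Sperm markers were 0.0625 to 1.5 times and male markers 0.886 to 3.37 times those in the libraries labelled N2. Their part in the parental differences was not tested.

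**Figure D2:**
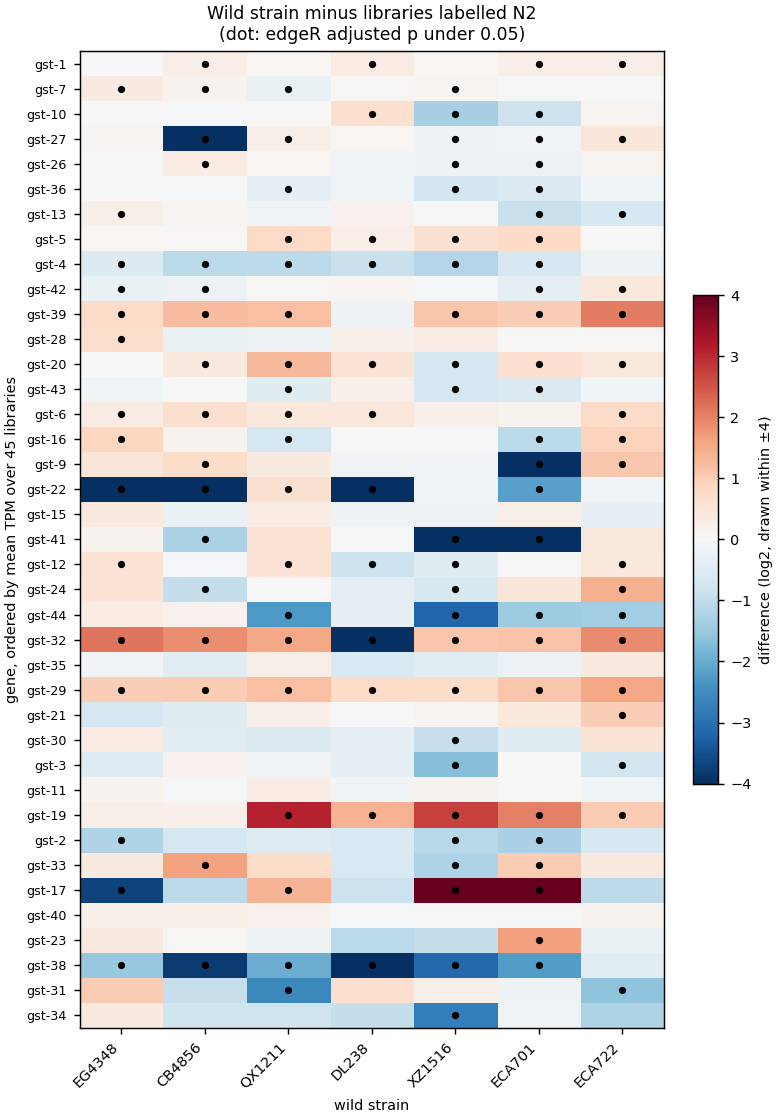
Difference of each wild strain from the libraries labelled N2 for the 39 tested genes, on the log2 scale with colours drawn within ±4, and a dot where edgeR's adjusted p was under 0.05. The called cells have 1 colour in rows such as gst-4 (lower in 6 strains), gst-39 (higher in 6) and gst-29 (higher in 7), and cells at the limit of the colour scale lie in the rows of gst-9, gst-17, gst-22, gst-27, gst-32, gst-38 and gst-41.

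Several members were present in the libraries labelled N2 and at or near 0 in particular wild strains. Gst-22 had 155, 252 and 254 estimated counts in the libraries labelled N2 (5.88, 5.35 and 5.07 TPM). It had 0 counts in all 3 EG4348 libraries and all 3 DL238 libraries, and 1, 0 and 0 counts in CB4856. In ECA701 it stood at 1.38, 1.07 and 1.30 TPM, and in QX1211 at 8.80, 7.95 and 9.60 TPM. The groups did not overlap: gst-22 was at least 193-fold lower in EG4348 and at least 163-fold lower in DL238, taking a floor of 3 counts over a group's libraries. For CB4856 the ratio to its 1 count was 404, with a 95% counting interval of 72.3 to 15980, and intervals and floors cover counting error only. ECA701 was lower by a log2 difference of -2.18 ± 0.18 (SE; edgeR adjusted p = 2.39e-12) and QX1211 higher by 0.62 ± 0.16 (adjusted p = 0.00205), while XZ1516 and ECA722 gave -0.17 and -0.11 and did not pass. Missing counts in a wild strain can mean a gene that is absent or silent, or one whose sequence no longer matches the quantified transcript, and these cannot be told apart here.

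Gst-41 showed the same kind of pattern in other strains. The libraries labelled N2 held 119, 147 and 147 estimated counts (4.18, 2.89 and 2.72 TPM). XZ1516 held 1, 0 and 0 counts and ECA701 0, 0 and 2. The ratio was 301 for XZ1516 (interval 53.8 to 11930) and 188.5 for ECA701 (51.9 to 1562). CB4856 was lower too, at 2.14, 1.18 and 0.398 TPM (log2 difference -1.27 ± 0.36, edgeR adjusted p = 0.00589), the other strains not passing the test. Its 3 libraries were thus spread over a wide range and all below the lowest N2-labelled library.

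For gst-32 a single wild strain was at 0. DL238 had 0 counts in 3 libraries against 15, 30 and 33 in the libraries labelled N2 (at least 19.2-fold lower), while each of the other 6 wild strains was higher than the libraries labelled N2. The largest rise was in EG4348, at 2.69, 3.15 and 3.09 TPM against 0.638, 0.713 and 0.737 (log2 difference 2.13 ± 0.28, edgeR adjusted p = 1.92e-07). The smallest, in XZ1516, was 1.10 ± 0.29 (adjusted p = 0.00208). Every library of these 6 strains lay above every library labelled N2.

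Gst-17 was the reverse case, near absent in the reference and present in a pair of strains. It had 6, 9 and 5 counts in the libraries labelled N2 (0.137, 0.115 and 0.0648 TPM), 145, 158 and 116 counts in XZ1516 (2.90, 2.72 and 2.88 TPM) and 193, 159 and 122 in ECA701 (3.05, 2.51 and 2.58 TPM). These are log2 differences of 4.79 ± 0.51 (edgeR adjusted p = 4.46e-10) and 4.63 ± 0.51 (adjusted p = 8.91e-10). QX1211 was higher by 1.37 ± 0.56 on 10 to 14 counts a library (adjusted p = 0.0452, lost when any of 4 libraries was left out), and EG4348 was lower on 1 count in all. The transcript lengths in the deposited files differ for gst-17 between strains, with 1057 bases in XZ1516 and ECA701 and 1085 in the other 6. The overlapping gst-18 has 566 bases in the same strains and 594 elsewhere.

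In CB4856 the loss fell on gst-27. It read 56.9, 51.8 and 55.1 TPM in the libraries labelled N2 and 1.66, 1.42 and 1.54 TPM in CB4856, a log2 difference of -5.13 ± 0.08 (edgeR adjusted p = 6.65e-35). Its neighbour gst-26 was at 62.0, 52.5 and 63.7 TPM in CB4856 against 49.5, 49.3 and 50.7 (0.28 ± 0.07, adjusted p = 0.000894). Both genes share fragments with other genes, but which genes those fragments also match was not recorded. The direction for gst-26 depended on how shared fragments were assigned, since the allele-aware gene totals gave -0.47 ± 0.06 (adjusted p = 4.49e-08). For gst-27 the fall was -6.82 with those totals and -4.80 with gene-specific fragments only. The sum of the pair was 60.9 ± 6.14 TPM in CB4856 and 104.4 ± 2.93 TPM in the libraries labelled N2 (SD, n = 3). Fragments shared within the pair stay in this sum, whereas fragments shared with any other gene need not. In ECA722 gst-27 was the highest of the parental groups at 77.5 ± 1.55 TPM (0.49 ± 0.05, adjusted p = 2.10e-10).

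**Figure D3:**
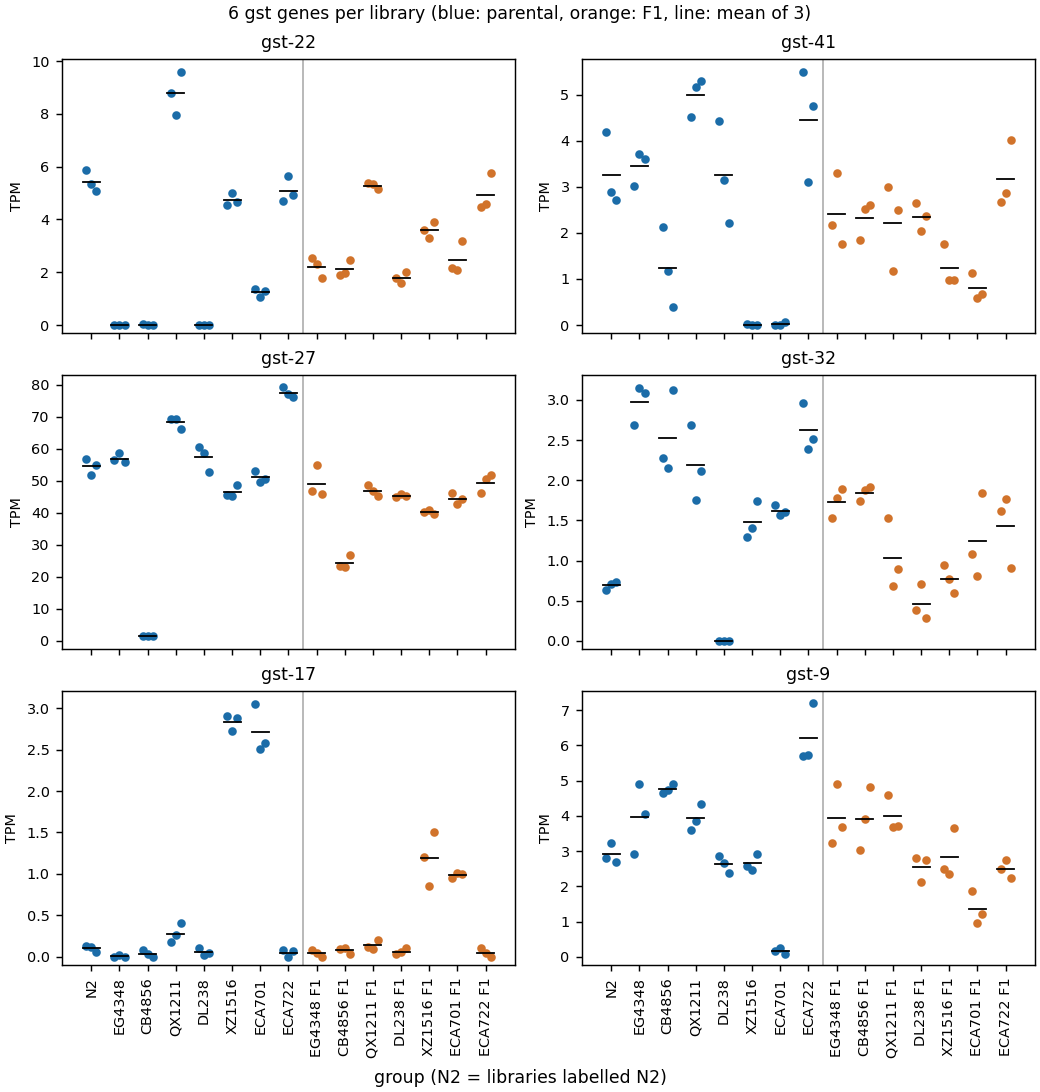
TPM of 6 genes in each of 45 libraries, with parental groups in blue, F1 groups in orange and a line at the mean of 3 libraries. Gst-22 lies at or near 0 in EG4348, CB4856 and DL238, gst-41 in XZ1516 and ECA701, gst-27 at 1.42 to 1.66 TPM in CB4856, gst-32 at 0 in DL238 and gst-9 near 0 in ECA701, while gst-17 rises only in XZ1516, ECA701 and, slightly, QX1211; the F1 of each such strain lies between its parents.

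Other steep differences were in genes of low level. Gst-9 was at 0.157, 0.261 and 0.0697 TPM in ECA701 against 2.80, 3.23 and 2.69 in the libraries labelled N2 (log2 difference -4.14 ± 0.29, edgeR adjusted p = 9.77e-15), and was higher in ECA722 (1.08 ± 0.21, adjusted p = 5.56e-05) and CB4856 (0.74 ± 0.21, adjusted p = 0.00639). It overlaps msp-33, a sperm protein gene, on the opposite strand, and counting was not stated to use strand. The summed sperm markers stood at 62.9 TPM in the libraries labelled N2, and at 3.93 TPM in ECA722, where gst-9 was highest, but at 55.5 TPM in ECA701, where it was lowest. Their part in the gst-9 result was not tested. Gst-38 was lower in 6 wild strains, from -1.51 ± 0.45 in EG4348 to -4.66 ± 0.63 in DL238, and at -0.44 in ECA722 did not pass. The libraries labelled N2 had 0.706, 1.20 and 0.953 TPM of it and DL238 0, 0.0451 and 0.0553. The gst-38 call in EG4348 was lost without EG4348 parental replicate 2. Gst-44 fell in QX1211 (-2.31 ± 0.22), XZ1516 (-3.16 ± 0.23), ECA701 (-1.42 ± 0.20) and ECA722 (-1.38 ± 0.20), while EG4348, CB4856 and DL238 gave 0.28, 0.16 and -0.32 and did not pass.

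A group of members moved one way across most strains. Gst-4, the gene most used as a reporter of SKN-1 activity, was at 33.1, 30.1 and 33.1 TPM in the libraries labelled N2. It was lower in 6 wild strains, from -0.53 ± 0.09 in EG4348 (edgeR adjusted p = 2.17e-05) to -1.19 ± 0.10 in XZ1516 (13.0, 14.5 and 13.8 TPM, adjusted p = 4.78e-13), with no library of these strains reaching the lowest N2-labelled one. ECA722, at 28.6, 26.6 and 29.1 TPM, gave -0.21 and did not pass. Gst-39 went the other way in 6 strains, with DL238 the exception (-0.21, not passing). Its 37.8, 35.5 and 38.3 TPM in ECA722 compare with 9.22, 7.97 and 9.34 in the libraries labelled N2 (2.06 ± 0.10, adjusted p = 2.10e-19), and the other rises ran from 0.75 in EG4348 to 1.23 in CB4856. Gst-29, its neighbour at about 1 TPM, was higher in all 7 strains, from 0.73 ± 0.30 in XZ1516 to 1.55 ± 0.29 in ECA722, and the XZ1516 and DL238 calls were lost when any of 5 libraries was left out. All 7 differences use the same 3 libraries labelled N2, and the test among the 7 wild strains did not pass for gst-29. In the second run on chromosome II, gst-19 was higher in 5 strains (up to 3.07 ± 0.39 in QX1211) and gst-20 higher in 5, with its peak in QX1211 (1.30 ± 0.11) and a fall in XZ1516 (-0.66 ± 0.12). Their neighbours differed: gst-16 was higher in EG4348 (0.86) and ECA722 (0.91) and lower in QX1211 (-0.71) and ECA701 (-1.06), and gst-12 was lower in DL238 (-0.84) and XZ1516 (-0.47) and higher in EG4348, QX1211 and ECA722. The gst-12 call in ECA722 was lost without any of the 6 libraries compared, and that in XZ1516 without any of 3. Calls each lost without at least 1 library were gst-19 in DL238 and ECA722, gst-20 in CB4856, and gst-29 in EG4348 and CB4856.

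The abundant members differed less. Gst-1 was higher in CB4856, DL238, ECA701 and ECA722 by log2 differences of 0.27 to 0.33, with 291.4, 336.1 and 339.5 TPM in the libraries labelled N2 and 390.0, 400.3 and 411.9 in DL238. Gst-7 was higher in EG4348 (0.37), CB4856 (0.14) and XZ1516 (0.10) and lower in QX1211 (-0.28), the XZ1516 call being lost without any of 5 libraries and the CB4856 call without any of 3. Gst-10 was at 88.4, 88.2 and 77.3 TPM in DL238 against 57.0, 53.9 and 54.5 in the libraries labelled N2 (0.63 ± 0.09, edgeR adjusted p = 2.88e-07), and lower in ECA701 at 32.9, 31.6 and 33.4 TPM (-0.82 ± 0.09, adjusted p = 1.18e-09). In XZ1516 its size depended on the counting: estimated counts gave -1.34, allele-aware totals -0.75 and gene-specific fragments -0.27. There, 60.6% to 61.0% of its estimated counts were assigned to a short isoform of 360 bases, to which no other parental group had any. Gst-5, which also conjugates 4-hydroxynonenal, was higher in QX1211 (0.80), ECA701 (0.79), XZ1516 (0.62) and DL238 (0.27), the DL238 call being lost without any of 6 libraries. Gst-42, the counterpart of maleylacetoacetate isomerase in tyrosine breakdown, was higher in ECA722 (0.43) and lower in ECA701 (-0.37), EG4348 (-0.26) and CB4856 (-0.23). Its CB4856 call was lost without any of 3 libraries. Gst-13 was lower in ECA701 (-0.90 ± 0.08) and ECA722 (-0.70 ± 0.08), and higher in EG4348 (0.24 ± 0.08), the EG4348 call being lost without any of 3 libraries. Gst-36 was lower in XZ1516 (-0.76), ECA701 (-0.56) and QX1211 (-0.38).

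By position, calls in the parental comparison made up 57.1% of tests in the run from gst-6 to gst-9, 55.1% in that starting with gst-20, 50.8% in that starting with gst-26, 52.4% in the trio on chromosome IV and 40.3% for members outside these runs. Of all gene tests, 40.9% were calls. The runs held 3, 7, 9 and 3 tested members in the same order. Neighbours are not independent of each other, nor are the strains, which share the libraries labelled N2, and no test was made of these shares.

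The genes around conjugation were followed as 5 lists. For glutathione synthesis and recycling, 9 of 42 tests in the 7 wild strains were higher and 8 lower. That list also holds the thioredoxin reductases trxr-1 and trxr-2. Of these, trxr-2 was higher in CB4856, QX1211, DL238, XZ1516 and ECA722 (0.19 to 0.69) and lower in EG4348 (-0.40). Gcs-1, the rate-limiting enzyme of glutathione synthesis, was within 0.26 of the libraries labelled N2 on the log2 scale where called, and gss-1, the synthetase, was lower in XZ1516 (-0.53). Glutathione peroxidases, which use glutathione to reduce peroxides, had 2 higher and 19 lower of 49 tests. Of them gpx-1 was lower in CB4856 (-2.14) and DL238 (-2.01) and gpx-4 in XZ1516 (-3.26). The 3 omega transferases had 6 higher and 2 lower calls of 21 tests, and these were in gsto-1 and gsto-3. The MRP exporters had 16 higher and 22 lower of 56, with mrp-8 lower in XZ1516 (-2.03) and ECA701 (-1.95). The SKN-1 pathway had 12 higher and 13 lower of 63, and skn-1 itself was higher by 0.13 to 0.17 in EG4348, DL238 and XZ1516. The other higher calls were in sek-1, mdt-15, pmk-1, nsy-1 and xrep-4. Lower calls were in wdr-23, brap-2, pmk-1, xrep-4 and gsk-3, the last in EG4348, CB4856, QX1211 and DL238 (-0.52 to -0.70). The list was not split by whether a gene acts for or against SKN-1. Over all genes, 21.4% of tests were higher and 19.5% lower. No test was made of the lists as such.

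The second comparison asks whether hybrids lie at the mean of their parents. On the log scale, 100 of 273 member tests departed from the mid-parent value (36.6%, beside 35.8% of all gene tests), 27 of them higher (9.89%, beside 19.4%) and 73 lower (26.7%, beside 16.4%). Departures of at least 2-fold were 9 (3.3%, beside 7.49%). The median departure of the tested members was negative in each cross, from -0.07 in DL238 to -0.31 in QX1211. The median of all genes lay between -0.08, in ECA701, and 0.01. The ECA701 F1 had 6 higher and 14 lower members, where 47.3% of all genes departed (24.5% higher and 22.8% lower). The ECA722 F1 had 3 higher and 15 lower, beside 33.9% of all genes (18.4% and 15.5%). For QX1211 the counts were 2 and 15, beside 42.3% (23.9% and 18.4%). For XZ1516 they were 4 and 11, beside 38.2% (22.1% and 16.1%). EG4348 gave 4 and 10, beside 27.1% (14.1% and 13.0%). Neither DL238, with 5 and 4 beside 27.1% (14.5% and 12.5%), nor CB4856, with 3 and 4 beside 34.7% (18.3% and 16.3%), had this surplus of lower members. The 7 crosses share the libraries labelled N2, so a common direction over crosses is not 7 separate results. Single F1 libraries carried part of these counts. Without F1 replicate 3 of EG4348 the 14 departures were 7, and without its replicate 1 they were 9. Without replicate 2 the QX1211 F1 had 11 and the XZ1516 F1 9, and the CB4856 F1 had 4 without replicate 1. The departures differed among the 7 crosses for 11 of 39 members, beside 23.6% of all genes (edgeR's F test). In the F1 groups, hypodermal markers summed to 0.763 to 0.969 times the mean of the parents and embryo markers to 0.728 to 0.965 times, below the mean in all 7 crosses, germline and oocyte markers to 1.09 to 1.16 times, and intestinal markers to 0.928 to 1.05 times. Muscle markers summed to 0.812 to 1.17 times, neuron markers to 0.958 to 1.01, sperm markers to 0.407 to 1.99 and male markers to 0.685 to 1.72 times. Their part in the departures was not tested.

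Gst-1 was the only member to pass the test above the mid-parent value in all 7 crosses, by 0.13 to 0.31 on the log2 scale. In the QX1211 F1 it stood at 230.5 ± 13.0 CPM against 190.0 in the wild parent and 180.5 in the libraries labelled N2 (0.31 ± 0.05, edgeR adjusted p = 2.96e-06). The lowest of the 3 N2-labelled libraries for gst-1 was replicate 1, and without it the calls in EG4348, CB4856, DL238, XZ1516 and ECA722 were lost. Each of these calls was also lost without at least 1 F1 library of its own cross. Those in XZ1516 and ECA722 were lost without a wild parental library as well. Gst-7 passed above the mid-parent value in 5 crosses by 0.09 to 0.23, of which the DL238 and ECA722 calls were each lost when any of 6 libraries was left out. Gst-44 was above it in EG4348, XZ1516 and ECA722 by 0.48 to 0.63, the EG4348 call being lost without any of 3 libraries. Gst-16 was above it in DL238 (0.34, lost without any of 4 libraries) and ECA701 (0.47). Gst-42 was below the mid-parent value in all 7 crosses, from -0.23 ± 0.07 in CB4856 to -0.50 ± 0.07 in QX1211, where the F1 had 11.0 ± 1.06 CPM and its parents 16.0 and 15.4. Gst-26 was below it in all 7 as well (-0.21 to -0.40). Gst-27 was below it in 6 (-0.18 to -0.39), and gene-specific fragments alone kept 2 of those 6 calls, QX1211 and ECA722. Gst-13 was below in 6 crosses (-0.19 to -0.33), the EG4348, CB4856 and XZ1516 calls each being lost without at least 1 library. Gst-36 was below in 5 (-0.19 to -0.27), with the EG4348, XZ1516, ECA701 and ECA722 calls lost in the same way. Gst-6 was below in 4 crosses, most in ECA722 (-0.65 ± 0.10) and CB4856 (-0.64 ± 0.10), and gst-5 and gst-10 in 4 each (-0.29 to -0.39 and -0.31 to -0.42). Gst-4 was below in XZ1516 (-0.31), ECA701 (-0.43) and ECA722 (-0.21), the last lost when any of 4 libraries was left out. Further departures downward were gst-12 in QX1211 (-0.80), gst-2 in DL238 (-0.85) and XZ1516 (-0.92), gst-15 in 4 crosses, and gst-3 in ECA701 (-0.62). Of these, the gst-2 and gst-3 calls and the gst-15 calls in QX1211 and ECA722 were each lost without at least 1 library. So were the calls of gst-42 in CB4856, gst-26 in ECA701 and gst-5 in EG4348 and QX1211. The F1 estimated counts carry the wild parent's transcript lengths, and the allele-aware totals, which hold both alleles, gave 98 departures in place of 100, with 93 in common.

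**Figure D4:**
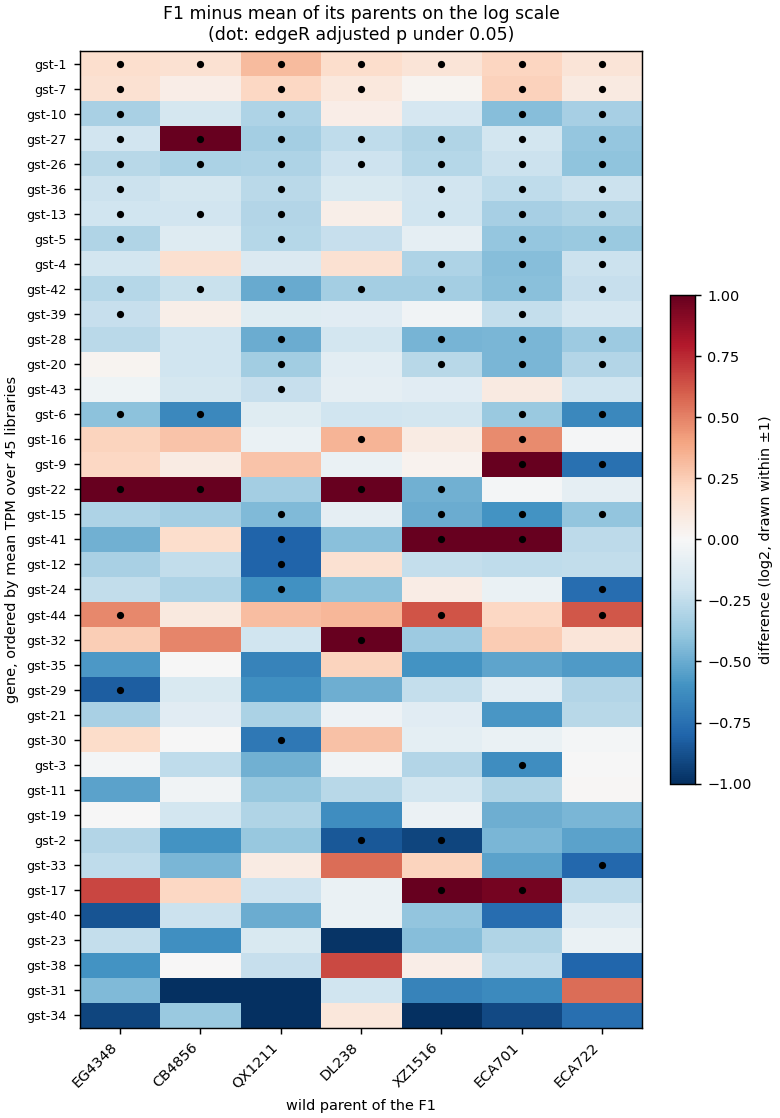
Departure of each F1 from the mean of its parents on the log2 scale for the 39 tested genes, with colours drawn within ±1 and a dot where edgeR's adjusted p was under 0.05. The row of gst-1 is red in all 7 crosses, gst-42 and gst-26 are blue in all 7, and the saturated red cells are genes at or near 0 in 1 parent.

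Departures upward of 1 log2 unit or more were in genes at or near 0 in 1 parent, where a mean on the log scale lies far below the mean on the linear scale. For gst-22, the F1 of EG4348, CB4856 and DL238 had 41.0%, 39.7% and 34.2% of the CPM of the libraries labelled N2. Gst-27 in the CB4856 F1 had 45.1% (23.5, 23.0 and 27.0 TPM), gst-9 in the ECA701 F1 47.4%, gst-41 in the XZ1516 and ECA701 F1 38.9% and 25.0%, and gst-32 in the DL238 F1 68.9%. For gst-17, the XZ1516 F1 had 1.21, 0.853 and 1.51 TPM and the ECA701 F1 0.952, 1.02 and 0.994 TPM, between the levels of their parents. The means of all these F1 groups lay between those of their parents, and their libraries overlapped with a parent only for gst-32 in DL238.

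Placing each F1 by its tests against each parent, 88 of 273 member tests were unchanged throughout (32.2%, beside 38.2% of all gene tests) and 33 were intermediate (12.1%, beside 6.24%). The N2-like tests numbered 38 (13.9%, beside 12.2%), the wild-like 36 (13.2%, beside 14.2%) and the ambiguous 47 (17.2%, beside 17.8%). F1 levels below both parents made up 28 tests (10.3%, beside 6.08% of all gene tests), and levels above both made up 3 (1.10%, beside 5.36%). Those above were gst-1 in the EG4348 and QX1211 F1 and gst-7 in the ECA701 F1. Those below included gst-26 and gst-27 in 5 crosses each and gst-42 in 4. The places of gst-26 and gst-27 rest on estimated counts, and only 61.25% and 24.21% of their fragments were gene-specific. In CB4856 the parental difference of gst-26 changed direction with the allele-aware totals, so its place there depends on the counting. The lists around conjugation had 11 higher and 0 lower departures of 42 tests for glutathione synthesis and recycling, 1 and 9 of 49 for the peroxidases, 0 and 5 of 21 for the omega transferases, 20 and 19 of 56 for the exporters and 15 and 4 of 63 for the SKN-1 pathway. Over all genes 19.4% of tests were higher and 16.4% lower, and the lists as such were not tested.

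The third comparison sets the alleles inside a hybrid against the parental difference. Both alleles share 1 cellular environment there, so an allele difference of the parental size is called cis, and a parental difference that the alleles do not keep is called trans. The test was made where the F1 libraries of a cross averaged 10 or more reads that tell the alleles of a member apart. That held for 32 members in at least 1 cross, and for 130 member tests in all, from 10 members in DL238 to 25 in XZ1516. The wild allele differed from the N2 allele in 20 of them (15.4%, beside 11.6% of all genes tested), 8 higher (beside 6.08%) and 12 lower (beside 5.5%), in 14 members. Differences of at least 2-fold made up 11.5% of member tests, beside 6.11%. By cross there were 3 calls in CB4856 (beside 7.82% of all genes), 1 in EG4348 (8.43%), 2 in DL238 (7.41%), 3 in QX1211 (11.4%), 4 in XZ1516 (17.3%), 3 in ECA722 (9.76%) and 4 in ECA701 (13.8%). Parental differences in this comparison were refitted from the allele-aware gene totals of the 9 libraries of a cross, and so differ from those given above. Of the 20, 19 were parental differences by that measure too, all in the same direction, although gst-26 in CB4856 had the opposite direction in the estimated counts. Another 44 parental differences had no allele call. With 2 alleles in 3 libraries these tests are thin: leaving out 1 F1 library left between 0 and 5 calls per cross, and every call other than gst-26 and gst-27 in CB4856 was lost without at least 1 of the libraries.

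For gst-22, gst-41 and gst-27, the wild allele was at or near 0 in the hybrids whose wild parent was. Gst-32 in the DL238 cross and gst-9 in the ECA701 cross had 0 reads that tell the alleles apart. For gst-22 the F1 held 0 wild reads beside 244 of N2 in the EG4348 cross, which allows a share of up to 1.23%, and 0 beside 225 in the CB4856 cross (up to 1.33%). In the DL238 cross 1 of 189 reads was wild (0.529%, exact Clopper-Pearson interval 0.0134% to 2.91%). For gst-41 there were 0 wild reads beside 108 in the XZ1516 cross (up to 2.78%) and 0 beside 69 in the ECA701 cross (up to 4.35%). Gst-27 in the CB4856 cross had 3 wild reads beside 245 (1.21%, interval 0.250% to 3.49%). Conversely, all 104 allele-specific reads of gst-17 in the XZ1516 cross and all 87 in the ECA701 cross were wild, so the N2 share is at most 2.88% and 3.45%. The edgeR adjusted p for these 8 tests lay between 0.00176 for gst-27 and 0.0266 for gst-41 in the ECA701 cross. A wild allele that no longer matches its transcript would give the same counts as one that is not expressed.

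Partial differences were kept by the alleles in other genes. The wild share of gst-39 was 69.8% (interval 62.0% to 76.8%) in the QX1211 cross, 68.1% (60.9% to 74.8%) in XZ1516 and 66.0% (59.6% to 71.9%) in ECA722. Its allele differences were 1.18 ± 0.25, 1.08 ± 0.23 and 0.94 ± 0.19, with adjusted p of 0.0329, 0.0275 and 0.0403 by edgeR. In QX1211 and XZ1516 they matched parental differences of 1.17 and 1.10, and in ECA722, where the parents differed by 2.04, the trans difference was 1.10 ± 0.17 (adjusted p = 0.00225). Gst-10 had 63.1%, 63.2% and 62.5% wild reads in the 3 DL238 F1 libraries (allele difference 0.76 ± 0.09, adjusted p = 0.00841, parental 0.66). Gst-16 in ECA701 (23.8% wild), gst-13 in ECA722 (32.6%), gst-36 in XZ1516 (41.4%), gst-44 in QX1211 (8.05%) and gst-38 in ECA701 (5.26%, on 38 reads in all) had lower wild alleles, and gst-42 in ECA722 a higher one (59.9%). Gst-1 in QX1211 was the call without a parental difference (53.7% wild, 0.21 ± 0.05, adjusted p = 0.0426). Gst-26 in the CB4856 cross was called at -2.32, yet its allele-specific reads were 43.8% wild (40.7% to 47.0%), so that value rests on how shared fragments were assigned.

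**Figure D5:**
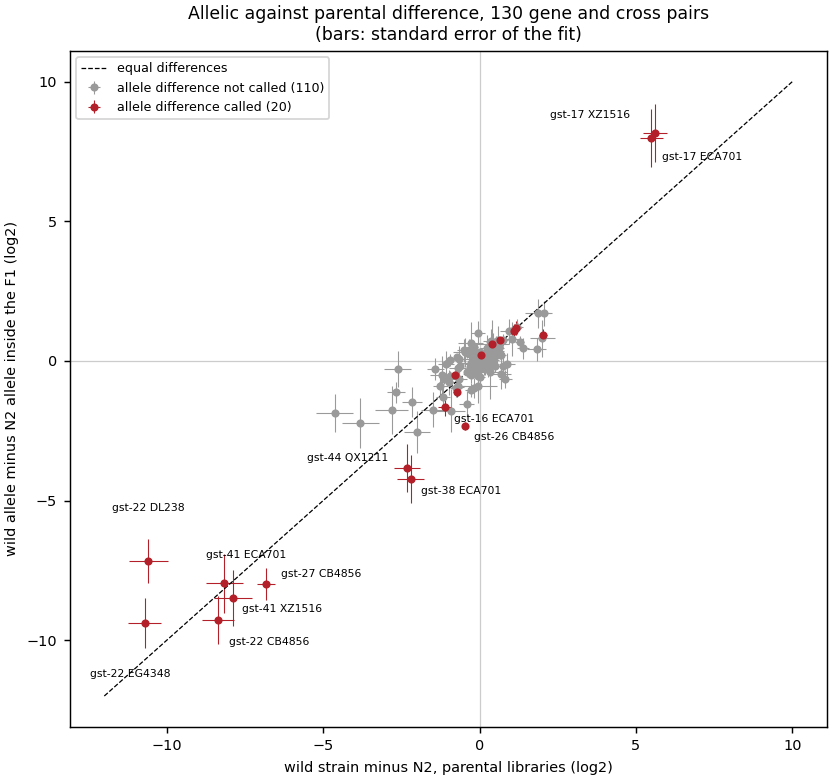
Wild minus N2 allele difference inside the F1 against wild minus N2 difference between parents for 130 gene and cross pairs, on the log2 scale with standard errors and a dashed line of equality. The 20 called allele differences (red) include gst-22, gst-41 and gst-27 at the lower left and gst-17 at the upper right, and gst-26 in CB4856 stands off the line; differences of genes with an allele or parent at 0 are fitted values that depend on the prior count.

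Gst-10 was the member with the most trans calls. The parental fall in XZ1516 (-0.71) and ECA701 (-0.95) was not kept by the alleles, whose wild shares were 52.0% (50.1% to 53.9%) and 51.1% (46.5% to 55.6%), giving trans differences of -0.85 ± 0.11 (edgeR adjusted p = 0.000393) and -0.99 ± 0.22 (adjusted p = 0.00932). The parental value in XZ1516 carries the dependence on counting given above. In CB4856 and QX1211, where the parental difference did not pass, the trans differences were -0.67 ± 0.18 (adjusted p = 0.0433) and -0.35 ± 0.10 (adjusted p = 0.0487), each call being lost when any of 7 libraries was left out. The other trans-only differences were gst-16 in EG4348 (1.48), gst-38 (-2.35) and gst-44 (-1.53) in XZ1516, gst-36 (-0.44) and gst-42 (-0.69) in ECA701, and gst-6 (0.90) and gst-24 (0.93) in ECA722. Of these, gst-38, gst-36 and gst-24 were each lost without any of 7 libraries, gst-6 without any of 8 and gst-44 without any of 3. Over the 130 tests, 17 were cis only (13.1%, beside 6.05% of all gene tests), 9 trans only (6.92%, beside 8.00%), 2 cis and trans (1.54%, beside 2.59%), 63 conserved (48.5%, beside 60.75%) and 39 ambiguous (30.0%, beside 20.5%). Trans calls numbered 14 (10.8%, beside 15.1%), with 4 in XZ1516 (beside 17.5% of all genes), 3 in ECA722 (15.2%), 3 in ECA701 (21.9%), 2 in CB4856 (9.04%), 1 in QX1211 (13.9%), 1 in EG4348 (13.7%) and 0 in DL238 (9.84%). Gst-4, lower in 6 wild strains, could be tested in QX1211, XZ1516, ECA701 and ECA722 on 28.3 to 36.0 allele-specific reads a library. Its wild shares there were 38.9%, 36.5%, 48.1% and 54.3%, and no allele difference passed.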

How the data were processed

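Messenger RNA of whole animals was sequenced with a directional library kit, per the labels' protocols, in 45 libraries of 15 groups. The deposited estimated counts and TPM per transcript carry the kallisto format, and kallisto is listed in the submitters' processing notes with Salmon 1.4, Trimmomatic 0.39, DESeq2 1.42.0 and ce11. Transcript lengths in the deposited F1 files equal the wild parent's and differ from those of N2, from which it is inferred that F1 counts used the wild parent's transcripts. Allele-level estimated counts and fragment equivalence class counts were also deposited by the authors; the allele table of EG4348 names its second allele EG4349.

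Estimated counts were summed per gene with the WBcel235 annotation and rounded to whole numbers. The quasi-likelihood test of edgeR 4.0.16 (R 4.3.3) used TMM scaling, filterByExpr (16444 of 19684 genes with counts) and 1 fit over 15 groups with 30 residual degrees of freedom, with Benjamini-Hochberg adjustment over all genes at 0.05. Allele differences were fitted per cross with the library as a block, leaving 2 residual degrees of freedom. Cis, trans and inheritance classes follow from which of these tests passed. CPM used TMM-scaled totals, and TPM served for levels. On simulated data the strain test of CB4856 recovered 62.5% of 2-fold and 92.8% of 4-fold changes with 7 false calls among 15978 genes. The simulation changed 96 of these genes 2-fold and 97 by 4-fold and left the rest equal between groups. In the real CB4856 comparison 31.6% of all genes were called, so these figures need not hold there. Tables were handled with pandas 2.3.3 in Python 3.11.15, and plots drawn with matplotlib 3.10.9.

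Genes named are those with a known role, the highest levels, the largest called differences per comparison, or a group at 0; others were chosen after their values were seen. The gene family and the gene lists were chosen for description with earlier results of these data known, and within the family the symbol alone decides membership. RNA was extracted in 3 batches with 1 replicate of each strain in each, but the labels do not tie batches to replicate numbers, so no within-batch value could be given. Replicates are separate samples per the labels; whether they are separate cultures is not given, so p-values measure the spread between these samples. Sequences are not shown here. Alternatives were DESeq2, RLE scaling, allele-aware totals, gene-specific or allele-specific fragments, no count filter, only the groups compared, a minimum of 30 allele-specific reads, a replicate block and leaving out each library.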

Additional observations from a re-analysis of the deposited data

Results flagged for a closer look

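The differences from the libraries labelled N2 were not equal among the 7 wild strains, and went both ways, for 15 genes (edgeR's quasi-likelihood F test, adjusted over all genes). Of all genes, 23.5% went both ways, and 86.3% differed among the 7 wild strains. The adjusted p was 2.143e-35 for gst-27, which was higher in QX1211 and ECA722 and lower in CB4856, XZ1516 and ECA701. It was 4.689e-26 for gst-22, higher in QX1211 and lower in EG4348, CB4856, DL238 and ECA701. For gst-10, higher in DL238 and lower in XZ1516 and ECA701, it was 2.886e-19. For gst-17, higher in QX1211, XZ1516 and ECA701 and lower in EG4348, it was 7.571e-17. Gst-9 gave 4.14e-16, being higher in CB4856 and ECA722 and lower in ECA701. Gst-13 gave 5.989e-16, higher in EG4348 and lower in ECA701 and ECA722. Its EG4348 call was lost without EG4348 parental replicate 2 or 3, or without N2-labelled replicate 1. Gst-20 gave 1.911e-15, higher in 5 strains and lower in XZ1516. Gst-16 gave 6.117e-15, higher in EG4348 and ECA722 and lower in QX1211 and ECA701. Gst-7 gave 3.73e-14, higher in EG4348, CB4856 and XZ1516 and lower in QX1211. Gst-32 gave 1.65e-13, higher in 6 strains and lower in DL238. Gst-24 gave 2.552e-11, higher in ECA722 and lower in CB4856 and XZ1516. Gst-42 gave 3.611e-11, higher in ECA722 and lower in EG4348, CB4856 and ECA701. Gst-12 gave 1.305e-09, higher in EG4348, QX1211 and ECA722 and lower in DL238 and XZ1516. Gst-26 gave 1.921e-08, higher in CB4856, where its direction depends on the counting, and lower in XZ1516 and ECA701. Gst-33 gave 5.384e-08, higher in CB4856 and ECA701 and lower in XZ1516. Its XZ1516 call was lost without XZ1516 parental replicate 2, and its ECA701 call without N2-labelled replicate 2.

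Departures from the mid-parent value went both ways among crosses, with a test of their equality past the threshold, for 4 genes. The test of equality alone passed for 11 of 39 members, beside 23.6% of all genes. The share of all genes that also went both ways is not given here. The adjusted p by edgeR was 1.037e-21 for gst-27, above the mid-parent value in CB4856 and below it in the other 6 crosses. It was 8.285e-15 for gst-22, above in EG4348, CB4856 and DL238 and below in XZ1516. It was 9.544e-05 for gst-41, above in XZ1516 and ECA701 and below in QX1211, and 0.0004619 for gst-9, above in ECA701 and below in ECA722. In each cross where these genes were above the mid-parent value, a parent was at or near 0. There the log-scale mean lies far below the linear one, and the F1 mean lay between those of its parents. Of the gst-27 calls below it, gene-specific fragments alone kept only those in QX1211 and ECA722. The gst-22 call below it in XZ1516 was lost without XZ1516 F1 replicate 2. The gst-41 call below it in QX1211 was lost without QX1211 F1 replicate 2 or N2-labelled replicate 1. No outlier test on single values was made, since groups held 3 libraries each; the effect of leaving out each library is given with the processing alternatives.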

How the results depend on the processing

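The 130 parental calls numbered 122 to 132 under the 7 alternatives, and the 100 mid-parent departures 84 to 103, both lowest with only the groups compared in the fit. These are net counts. With only the groups compared, 15 parental calls were lost and 7 gained, and 18 departures were lost and 2 gained. The median departure stayed between -0.20 and -0.23. Gst-26 in CB4856 reversed with allele-aware gene totals (-0.47). Allele calls moved most: 20 in all became 49 with allele-specific fragments, 33 with no replicate block, 25 with DESeq2 and 22 with a minimum of 30 reads. With allele-specific fragments they were 7 in CB4856, 5 in DL238, 14 in ECA701, 4 in EG4348, 6 in QX1211 and 10 in XZ1516. With no replicate block they were 5, 4, 11, 2 and 5 in the first 5 of these. A minimum of 30 reads gave 5 in CB4856 and 2 in ECA701, and DESeq2 5 in CB4856. Trans calls with allele-specific fragments were 1 in CB4856 and 5 in ECA722, and in QX1211 2 with a minimum of 30 reads and 2 with DESeq2. With a replicate block trans calls fell from 14 to 9 (1 in CB4856, 0 in QX1211, 2 in XZ1516). The cause was not tested.

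Leaving out 1 library gave 36 to 37 members differing among 8 strains. Parental calls were 14 to 18 in CB4856, 9 to 12 in DL238, 23 to 25 in ECA701, 14 to 18 in ECA722, 12 to 16 in EG4348, 18 to 20 in QX1211 and 19 to 22 in XZ1516. Mid-parent departures, in the same order, were 4 to 10, 6 to 9, 14 to 20, 12 to 17, 7 to 17, 11 to 19 and 9 to 16. Allele calls were 2 to 3, 0 to 1, 0 to 2, 0 to 0, 0 to 1, 0 to 2 and 1 to 5, with 2 libraries left per F1. Trans calls were 1 to 3, 0 to 1, 2 to 7, 1 to 5, 1 to 1, 0 to 3 and 1 to 5.

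Replicate numbers did not pair the libraries throughout. In 3 of 21 pairs of groups all correlations of same-numbered libraries exceeded 0.1 (range -0.317 to 0.559). In 26 of 63 comparisons, each with 3 candidate libraries, a library correlated best with the one of its own number. A replicate block gave 132 parental calls and 103 departures. Depth limits the members under 1 TPM and the 12 members with too few allele-specific reads.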
